A study of Rattus norvegicus with 12 samples.

Results

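The genes described here are the matrix metalloproteinases (Mmp), the membrane-anchored ADAM proteases (Adam), the secreted ADAMTS proteases with the related ADAMTS-like proteins (Adamts and Adamtsl), and the tissue inhibitors of metalloproteinases (Timp). They were chosen by symbol alone, as every row of the count table whose gene symbol starts with Mmp, Adam, Adamts, Adamtsl or Timp followed by a number, with no use of measured values. The table had 75 such genes of 17268, of which 23 were Mmp, 25 Adam, 24 Adamts or Adamtsl and 3 Timp genes, Timp1, Timp3 and Timp4. Timp2 was not analysed here.

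RNA was sequenced from the cerebral cortex of 12 adult male Sprague Dawley rats, 3 in each of 4 groups, with 1 library per rat. Sham rats had the vessel surgery without a clot, and Model rats had an embolic stroke from a clot of donor rat blood injected at the origin of the middle cerebral artery, with no treatment. In the rt-PA group the same stroke was followed at 6 h by recombinant tissue plasminogen activator, a thrombolytic that dissolves clots, given by tail vein. The rt-PA+Acu group received needle acupuncture at the GV26 and PC6 points at 2 h after the stroke and rt-PA at 6 h. All groups but Sham therefore carried the clot. No group analysed here had acupuncture without rt-PA, so acupuncture was assessed as rt-PA+Acu vs rt-PA, called the acupuncture comparison below. The time after stroke at which the cortex was taken for RNA is not given in the sources used here.

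Metalloproteinases use a zinc ion to cut proteins outside the cell. They are made as inactive precursors, opened by other proteases such as plasmin or by each other, and held in check by TIMPs, which block the active site. In brain they are known for cutting the basal lamina around vessels, the proteoglycan matrix around neurons, and cell surface proteins that are released as soluble forms, and several of them are studied in stroke because basal lamina loss goes with leakage of the blood-brain barrier.

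Total counts per library ranged from 11678450 to 13616935, so that 3 counts in a library stood for 0.208 to 0.262 CPM, which are counts relative to the library total after scaling with TMM factors of 0.948 to 1.08. A gene was called when edgeR's quasi-likelihood test, fitted on the 6 libraries of a pair of groups over all genes with enough counts, gave a Benjamini-Hochberg adjusted p under 0.05 and a log2 fold change over 1 in either direction. Adjusted p values given below as "edgeR adjusted p" are from this test, and each fold change is the log2 of the first group over the second. The libraries also fell into classes that followed the groups only in part. At Rpl39, a ribosomal protein gene chosen after its values were seen, Model replicate 3 had 142 counts, the Sham libraries 105 to 151 and the other 8 libraries 488 to 990. Leaving out Model replicate 3 is among the alternatives, but Model and Sham then coincide with the classes. That fit therefore cannot tell stroke and class apart. In rt-PA+Acu vs Sham the classes coincide with the groups in any case. All 8 neuronal, 7 astrocyte and 6 oligodendrocyte marker genes had counts. So did 92.0% of all genes in the table, so this does not test the cortex label.

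Of the 75 genes, 50 were expressed, meaning at least 1 CPM in at least 3 of the 12 libraries, against 75.8% of all genes in the table. They comprised 11 of 23 Mmp, 12 of 25 Adam, all 24 Adamts and Adamtsl, and all 3 Timp genes. Another 16 had counts but stayed under that level, among them Mmp8 (neutrophil collagenase), Mmp10, Mmp11, Mmp13, Mmp21, Mmp23, Mmp25 and the matrilysin gene Mmp7. In 9 genes no library had a count, namely Adam24, Adam26a, Adam28, Adam34, Adam34l, Mmp1, Mmp1b, Mmp20 and Mmp27. Among 18 ADAM genes listed for expression in testis or sperm, 13 were in the table, 4 had no count and 1 had enough counts to be tested, and it was not called in any of the 5 comparisons.

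Stroke changed many of these genes in both directions. In Model vs Sham, 50 of the 75 could be tested and 22 were called, 13 higher and 9 lower in Model, that is 44% of those tested, where 21.5% of all 12884 genes tested were called. Higher calls made up 9.43% and lower calls 12% of all genes tested. The median log2 fold change of the 50 was 0.05 beside 0.01 for all genes, and 26 of the 50 lay above 0. By family, 5 Mmp, 1 Adam, 6 Adamts or Adamtsl and 1 Timp gene rose, and 2 Mmp, 1 Adam, 5 Adamts and 1 Timp gene fell. At the adjusted p alone 28 passed, beside 54% of all genes, and in 32 the Model and Sham libraries did not overlap, beside 63.6% of all genes, so these 2 shares were close to the background. Without Model replicate 3 the count of calls was 25, in a fit where stroke and library class coincide. In bulk tissue, a change in the number of cells of a type and a change in RNA per cell cannot be told apart, which holds for every value that follows.

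**Figure D1:**
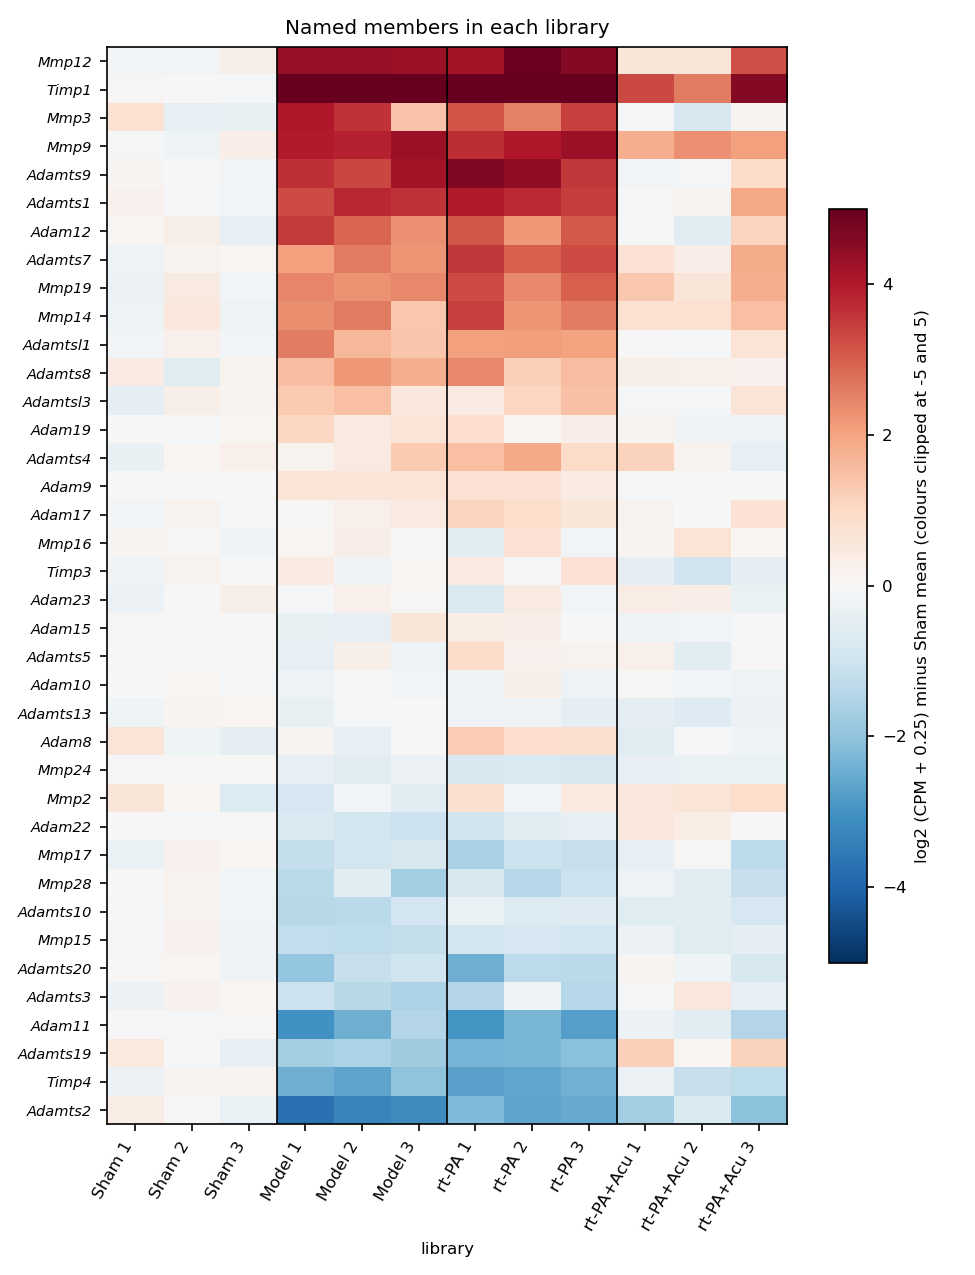
Heat map of log2 (CPM + 0.25) minus the Sham mean for the 38 named genes tested in Model vs Sham (rows, ordered by log2 fold change) in each of the 12 libraries (columns), with colours clipped at -5 and 5. The upper rows are red in all Model and rt-PA libraries and mostly paler in rt-PA+Acu, where Timp1 and Mmp9 stay red in every library. The lower rows are blue in Model and rt-PA. At many genes rt-PA+Acu replicate 3 is nearer to rt-PA than its group mates.

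Among the inhibitors, Timp1 and Timp4 moved in opposite directions. Timp1, an inducible inhibitor of most secreted metalloproteinases, stood at 2.17, 2.14 and 2.01 CPM in the Sham rats, 229, 315 and 141 in the Model rats, 469, 139 and 407 with rt-PA and 23.3, 13.9 and 56.3 with rt-PA+Acu. Every Model and rt-PA library lay above every rt-PA+Acu library, and every rt-PA+Acu library above every Sham library. Its log2 fold change was 6.76 (standard error 0.35, edgeR adjusted p = 7.79e-06) for Model vs Sham and -3.43 (standard error 0.63, edgeR adjusted p = 0.00689) in the acupuncture comparison, or -4.18 without rt-PA+Acu replicate 3, the highest of its group. Against Sham, rt-PA+Acu kept a difference of 3.89 (standard error 0.53, edgeR adjusted p = 0.00885), or 3.12 without rt-PA+Acu replicate 3, and this call was lost without Sham replicate 2 (edgeR adjusted p = 0.0606). Timp4, the TIMP best known from brain and heart, stood at 14.4, 19.9 and 19.8 CPM in the Sham rats, 3.05, 2.62 and 4.21 in the Model rats, 2.50, 2.73 and 3.17 with rt-PA and 14.3, 7.94 and 7.16 with rt-PA+Acu. All Model and rt-PA libraries lay below all Sham and rt-PA+Acu libraries. Its log2 fold change was -2.44 (standard error 0.24, edgeR adjusted p = 0.000103) for Model vs Sham and 1.81 (standard error 0.32, edgeR adjusted p = 0.00628) in the acupuncture comparison. Timp3, which binds to matrix and also blocks ADAM17, overlapped between Model and Sham, at 32.9 to 41.2 CPM in Sham and 32.6 to 49.5 in Model. It was lower with rt-PA+Acu (18.3 to 26.2 CPM) than with rt-PA (35.4 to 60.3 CPM), with a change of -1.05 (standard error 0.23, edgeR adjusted p = 0.0123), and was no longer called without rt-PA replicate 3 (-0.87) or without rt-PA+Acu replicate 2 (-0.90). The reference annotation places Timp1, Timp3 and Timp4 within the synapsin genes Syn1, Syn3 and Syn2, and whether counting used strand is not given in the sources used here. Syn1 was lower where Timp1 was higher, at 557 to 683 CPM in Sham and 382 to 434 in Model. Syn3 and Syn2 stood at 69.7 to 72.1 and 212 to 275 CPM in Sham, 42.2 to 48.9 and 176 to 248 in Model, 38.4 to 66.9 and 135 to 193 in rt-PA, and 85.4 to 95.6 and 270.1 to 343 in rt-PA+Acu, and the part of synapsin reads in the Timp values was not tested.

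The ratio of Timp1 counts to those of the expressed Mmp genes shifted with Timp1. Timp1 counts divided by the summed counts of the 11 expressed Mmp genes, a ratio within a library that no scaling changes, were 0.00626 to 0.00757 in Sham, 0.419 to 0.987 in Model, 0.422 to 1.56 in rt-PA and 0.0427 to 0.223 in rt-PA+Acu. Sham, rt-PA+Acu and the other groups did not overlap, while Model and rt-PA did. The sum itself, in which long transcripts weigh more, stayed at 287 to 342 CPM in the Sham rats, 313 to 336 in the Model rats, 300.1 to 329 with rt-PA and 253 to 325 with rt-PA+Acu, all overlapping. Its largest parts in Sham were the membrane-type genes Mmp17 and Mmp24, with means of 105 and 104 CPM, beside 5.22 for Mmp9. In Model these means were 52.9, 77.6 and 89.1 CPM, so the flat sum held changes in opposite directions.

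Of the 7 secreted Mmp genes tested in Model vs Sham, 4 rose and 1 fell, beside 21.5% of all genes called. Of 7 tested in the acupuncture comparison, 5 fell and 0 rose, beside 15.3% of all genes called. Mmp9, gelatinase B, which cuts type IV collagen of the basal lamina, stood at 4.83, 4.28 and 6.55 CPM in the Sham rats, 84.1, 77.9 and 105 in the Model rats, 70.2, 87.1 and 105 with rt-PA and 18.5, 25.8 and 22.1 with rt-PA+Acu. The Model and rt-PA libraries overlapped and lay above all rt-PA+Acu libraries, which lay above all Sham libraries. Mmp9 rose by 4.10 (standard error 0.19, edgeR adjusted p = 5.45e-06) in Model vs Sham. It was lower, with a change of -1.98 (standard error 0.19, edgeR adjusted p = 0.00118) in the acupuncture comparison, and still higher than in Sham by 2.09 (standard error 0.21, edgeR adjusted p = 0.00334), between 1.96 and 2.47 over all alternatives. Mmp2, gelatinase A, behaved differently, at 10.95, 7.57 and 4.37 CPM in the Sham rats, 3.89, 6.52 and 4.63 in the Model rats, 12.6, 6.39 and 10.3 with rt-PA and 10.8, 11.2 and 13.4 with rt-PA+Acu. Its groups overlapped in Model vs Sham (-0.60, edgeR adjusted p = 0.181) and in the acupuncture comparison (0.28, edgeR adjusted p = 0.437), and it was called in rt-PA+Acu vs Model alone, by 1.24 (standard error 0.25, edgeR adjusted p = 0.00852).

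Mmp3, stromelysin 1, which can open the Mmp9 precursor, stood at 0.483, 0.0764 and 0.0873 CPM in the Sham rats, 6.64, 4.99 and 0.909 in the Model rats, 3.61, 2.23 and 4.35 with rt-PA and 0.169, 0 and 0.224 with rt-PA+Acu. Model replicate 3 was the lowest of its group but still above all Sham libraries, and all rt-PA+Acu libraries lay below all rt-PA libraries. The fold change was 4.22 (standard error 0.90, edgeR adjusted p = 0.00468) in Model vs Sham, or 5.52 without Sham replicate 1, and -4.55 (standard error 0.66, edgeR adjusted p = 0.00331) in the acupuncture comparison, or -5.15 without rt-PA+Acu replicate 3. Mmp12, macrophage elastase, had 0, 0 and 1 counts in the Sham rats, 70, 63 and 63 in the Model rats, 68, 112 and 86 with rt-PA and 2, 2 and 31 with rt-PA+Acu. All Model and rt-PA libraries lay above all Sham and rt-PA+Acu libraries, and rt-PA+Acu replicate 3 stood apart from its group mates. With 1 count over Sham and 196 over Model, the ratio was 196 with an exact 95% counting interval of 34.7 to 7766, which covers counting error only (edgeR adjusted p = 5.34e-05). In the acupuncture comparison the log2 fold change was -2.78 (standard error 0.81, edgeR adjusted p = 0.0326). This call was lost when rt-PA replicate 1, 2 or 3 or rt-PA+Acu replicate 1 or 2 was left out, with edgeR adjusted p up to 0.0871, and the value was -5.13 without rt-PA+Acu replicate 3. Mmp8, the collagenase of neutrophils, had 2, 1 and 6 counts in Sham, 2, 2 and 16 in Model, 39, 11 and 11 in rt-PA and 0 in all rt-PA+Acu libraries. Model overlapped with Sham and with rt-PA, all rt-PA libraries lay above all Sham libraries, and 61 counts over rt-PA against a floor of 3 counts over the rt-PA+Acu group made Mmp8 at least 17.8-fold lower in rt-PA+Acu (edgeR adjusted p = 0.0143).

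Mmp19, a secreted protease of basal lamina proteins, stood at 1.05, 1.91 and 1.22 CPM in the Sham rats, 8.40, 7.45 and 8.18 in the Model rats, 15.2, 8.26 and 12.5 with rt-PA and 3.88, 2.18 and 5.45 with rt-PA+Acu. Sham lay below rt-PA+Acu, and rt-PA+Acu below Model and rt-PA, with no overlap. It rose by 2.52 (standard error 0.29, edgeR adjusted p = 0.000216) in Model vs Sham and was lower, with a change of -1.63 (standard error 0.37, edgeR adjusted p = 0.014) in the acupuncture comparison. Mmp28, epilysin, was the secreted Mmp gene that fell, from 5.48, 6.27 and 5.06 CPM in Sham to 2.06, 3.64 and 1.57 in Model, a change of -1.20 (standard error 0.34, edgeR adjusted p = 0.0165). That call was lost without Sham replicate 2 (edgeR adjusted p = 0.0598) and without Model replicate 3 (-0.97), and in the acupuncture comparison the change was 0.53 (edgeR adjusted p = 0.266).

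**Figure D2:**
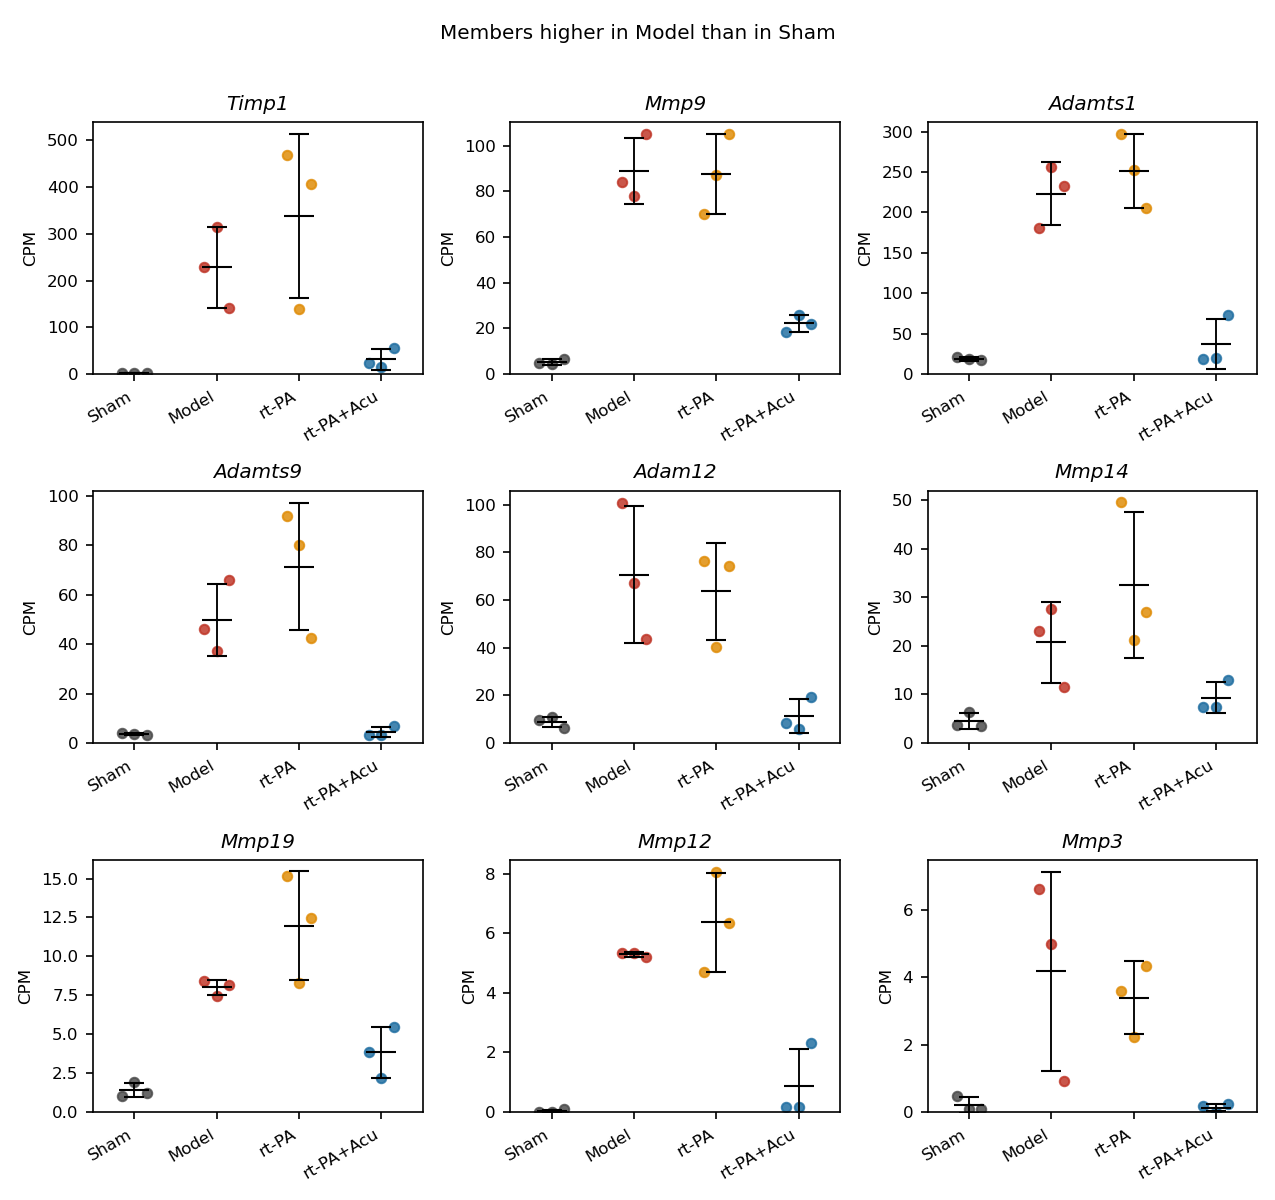
CPM in each library (points) for 9 genes that were higher in Model than in Sham, by group, with the mean (long bar) and SD (whiskers, n = 3) and a linear axis per gene. In every panel the Model and rt-PA points overlap, and in all panels but Mmp14 all rt-PA+Acu points lie below all Model points.

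The membrane-type Mmp genes were mixed. Mmp14, which opens the Mmp2 precursor at the cell surface, stood at 3.62, 6.42 and 3.58 CPM in the Sham rats, 22.98, 27.6 and 11.6 in the Model rats, 49.6, 21.2 and 26.995 with rt-PA and 7.50, 7.50 and 12.99 with rt-PA+Acu. All rt-PA+Acu libraries lay above Sham and below rt-PA, and rt-PA+Acu replicate 3 at 12.99 CPM passed Model replicate 3 at 11.6 CPM. It rose by 2.19 (standard error 0.37, edgeR adjusted p = 0.00138) in Model vs Sham and was lower, with a change of -1.80 (standard error 0.37, edgeR adjusted p = 0.00988) in the acupuncture comparison. Mmp15, also anchored by a transmembrane helix, went the other way, at 44.1, 54.04 and 41.4 CPM in the Sham rats, 19.6, 19.1 and 20.2 in the Model rats, 24.6, 25.9 and 23.97 with rt-PA and 38.2, 29.9 and 34.1 with rt-PA+Acu. Model lay below Sham, with a change of -1.24 (standard error 0.13, edgeR adjusted p = 0.000137), and rt-PA+Acu above rt-PA by 0.46 (edgeR adjusted p = 0.0313), under the fold change threshold. The GPI-anchored Mmp17 and the neuronal Mmp24 were lower in Model than in Sham, with changes of -0.98 and -0.41, past the adjusted p (edgeR adjusted p = 0.00125 and 0.00925) but under the fold threshold. Mmp24 lay at 97.6 to 108 CPM in the Sham rats, 69.1 to 85.1 in the Model rats, 58.6 to 61.3 with rt-PA and 78.1 to 81.6 with rt-PA+Acu. Mmp16 overlapped between Sham, at 29.9 to 37.4 CPM, and Model, at 33.7 to 42.8 CPM, with a change of 0.14 (edgeR adjusted p = 0.384).

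Mmp3 and Mmp12 lie in one run of 10 Mmp genes on rat chromosome 8, in the RefSeq order Mmp13, Mmp12, Mmp1b, Mmp3, Mmp1, Mmp10, Mmp8, Mmp27, Mmp20 and Mmp7, with no other coding gene between them. These were the only 2 of the 10 with enough counts to be tested in Model vs Sham, and both rose. Mmp10 and Mmp13, named here after their values were seen, had most of their counts in a few libraries, with 3, 13 and 0 counts of Mmp10 in Model and 0 in every other library, and 2, 24 and 3 counts of Mmp13 in Model and 4, 2 and 35 in rt-PA. Promoters in this run are known for a shared AP-1 element, bound by Fos and Jun proteins, a short way before the start site. The 250 bases before the start, from RefSeq on build GRCr8, which is not the build the authors aligned to, are shown for 4 genes of the run and for Timp1, the inhibitor with the largest rise. Capitals mark TGANTCA, the AP-1 letters searched, which read the same on both strands.
Mmp12, chr8:12866402-12866651, plus strand: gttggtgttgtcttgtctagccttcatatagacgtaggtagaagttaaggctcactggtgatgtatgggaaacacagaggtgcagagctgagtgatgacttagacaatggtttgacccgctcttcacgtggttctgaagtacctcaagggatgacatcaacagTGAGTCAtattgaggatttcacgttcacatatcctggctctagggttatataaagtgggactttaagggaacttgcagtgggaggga
Mmp3, chr8:12925031-12925280, plus strand: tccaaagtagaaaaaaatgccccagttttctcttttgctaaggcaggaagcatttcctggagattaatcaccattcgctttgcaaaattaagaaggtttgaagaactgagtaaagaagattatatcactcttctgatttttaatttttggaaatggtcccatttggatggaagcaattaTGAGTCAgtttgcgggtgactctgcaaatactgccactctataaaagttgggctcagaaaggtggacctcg
Mmp10, chr8:12974457-12974706, plus strand: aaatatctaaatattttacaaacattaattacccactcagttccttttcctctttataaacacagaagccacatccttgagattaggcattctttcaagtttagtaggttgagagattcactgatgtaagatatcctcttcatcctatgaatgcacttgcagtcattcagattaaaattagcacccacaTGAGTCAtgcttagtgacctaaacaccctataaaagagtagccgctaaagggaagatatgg
Mmp13, chr8:12782579-12782828, plus strand: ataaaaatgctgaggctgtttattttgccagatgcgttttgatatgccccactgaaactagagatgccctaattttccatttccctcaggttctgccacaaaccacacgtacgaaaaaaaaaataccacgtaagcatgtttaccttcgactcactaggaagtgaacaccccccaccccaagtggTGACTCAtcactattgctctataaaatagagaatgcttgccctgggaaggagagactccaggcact
Timp1, chrX:3771123-3771372, minus strand: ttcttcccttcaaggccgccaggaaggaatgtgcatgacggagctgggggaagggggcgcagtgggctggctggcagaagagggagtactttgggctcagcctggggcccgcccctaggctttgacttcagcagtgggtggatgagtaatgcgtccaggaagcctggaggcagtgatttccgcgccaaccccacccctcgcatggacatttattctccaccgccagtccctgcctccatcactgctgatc

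The AP-1 letters stood at -87 to -81 from the start in Mmp12, -71 to -65 in Mmp3, -61 to -55 in Mmp10 and -66 to -60 in Mmp13, and were absent from this window of Timp1. Variants of these letters were not searched, so this does not show that the Timp1 window lacks an AP-1 element. Of the 10 promoters of the run, 7 held them. Promoters of that length were at hand for 52 of the 75 genes, and 8 of these 52 (15.4%) held the letters, against 695 of 13308 (5.22%) for all genes of the table with a promoter. By call in Model vs Sham, they were in 2 of 9 promoters of genes that rose (Mmp12 and Mmp3), 0 of 7 of genes that fell, 1 of 19 of genes tested but not called (Adam19) and 5 of 17 of genes not tested (Mmp1, Mmp7, Mmp10, Mmp13 and Mmp20). All of these 8 genes but Adam19 belong to the run on chromosome 8. The CRE letters TGACGTCA, the STAT letters TTCCNGGAA and the NF-kB letters (GGGA, any 3 bases, then CCC) were searched on both strands. They were in 1, 1 and 3 of the 52, against 2.45%, 1.02% and 5.83% of all promoters. None was in the 9 promoters at hand of genes that rose. For Mmp9, Mmp14, Mmp19 and Adamts8, which also rose, no promoter was at hand and none of these letters was searched. A match describes letters only and shows no binding.

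Among the 7 ADAMTS genes whose proteins cut the large proteoglycans of brain matrix, 3 rose and 1 fell in Model vs Sham. Of all genes tested, 21.5% were called there. Adamts1, which cuts aggrecan and versican, stood at 21.4, 17.96 and 16.7 CPM in the Sham rats, 180.2, 257 and 232 in the Model rats, 297, 252 and 206 with rt-PA and 18.1, 20.2 and 72.5 with rt-PA+Acu. Model and rt-PA lay far above Sham, and rt-PA+Acu replicates 1 and 2 lay within the Sham range while replicate 3 did not. It rose by 3.58 (standard error 0.16, edgeR adjusted p = 4.82e-06) in Model vs Sham and was lower, with a change of -2.76 (standard error 0.53, edgeR adjusted p = 0.00803) in the acupuncture comparison, or -3.71 without rt-PA+Acu replicate 3. Adamts9 stood at 3.87, 3.44 and 3.14 CPM in the Sham rats, 46.03, 37.3 and 65.99 in the Model rats, 91.7, 80.1 and 42.3 with rt-PA and 3.12, 3.23 and 6.79 with rt-PA+Acu. Its rt-PA+Acu libraries overlapped with Sham and lay below all Model and rt-PA libraries. The change was 3.84 (standard error 0.24, edgeR adjusted p = 1.74e-05) for Model vs Sham and -4.01 (standard error 0.41, edgeR adjusted p = 0.00125) in the acupuncture comparison. Adamts8, known for blocking vessel growth as well as for cutting aggrecan, rose by 1.94 (standard error 0.34, edgeR adjusted p = 0.00185) from 1.15 to 2.58 CPM in Sham to 5.95 to 9.40 in Model, and was lower, with a change of -1.64 (edgeR adjusted p = 0.0131) in rt-PA+Acu, at 2.24 to 2.36 CPM. Adamts5, the neighbour of Adamts1 on chromosome 11 and a main aggrecanase of cartilage, stood at 3.06 to 3.23 CPM in Sham and 2.29 to 3.89 in Model, with a change of -0.10 (edgeR adjusted p = 0.789). Adamts4, the aggrecanase most studied in brain, stood at 22.6, 30.96 and 35.01 CPM in the Sham rats, 33.1, 39.6 and 72.3 in the Model rats, 82.98, 108 and 56.4 with rt-PA and 64.9, 32.7 and 21.9 with rt-PA+Acu. Its groups overlapped in Model vs Sham (0.72, edgeR adjusted p = 0.0648) and in the acupuncture comparison (-1.05, edgeR adjusted p = 0.0745). The edgeR fit on the 6 libraries of a pair did not call it in any comparison. In the acupuncture comparison DESeq2 called it (-1.04, adjusted p = 0.0201). So did edgeR with library size alone (-1.16, adjusted p = 0.0452) and with 1 fit over all 12 libraries (-1.05, adjusted p = 0.0479). It was also called by edgeR with the replicate number as a block (-1.14, adjusted p = 0.0327) and without rt-PA+Acu replicate 1 (-1.59, adjusted p = 0.0173). Adamts20 was the proteoglycan-cutting gene that fell, at 14.6 to 17.7 CPM in Sham and 4.12 to 8.18 in Model, a change of -1.33 (edgeR adjusted p = 0.0025), and was higher in the acupuncture comparison by 1.43 (edgeR adjusted p = 0.0219). The call in the acupuncture comparison was lost without rt-PA+Acu replicate 1 (edgeR adjusted p = 0.0725) or 2 (edgeR adjusted p = 0.0639) and with the replicate number as a block (edgeR adjusted p = 0.0566).

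The procollagen N-proteinases Adamts2 and Adamts3, which trim fibrillar collagen precursors, were both lower after stroke. Adamts2 had the largest called fall of the 75 genes in Model vs Sham. It stood at 15.5, 11.8 and 9.60 CPM in the Sham rats, 0.687, 1.02 and 1.16 in the Model rats, 2.43, 1.72 and 1.92 with rt-PA and 3.46, 7.24 and 2.76 with rt-PA+Acu. Sham lay above all other groups, then rt-PA+Acu, rt-PA and Model in that order, with no overlap. The change was -3.68 (standard error 0.30, edgeR adjusted p = 4.9e-05) in Model vs Sham, 1.14 (standard error 0.42, edgeR adjusted p = 0.0693) in the acupuncture comparison and -1.47 (standard error 0.37, edgeR adjusted p = 0.0596) in rt-PA+Acu vs Sham. The last 2 did not pass in the edgeR fit on the 6 libraries of the pair. DESeq2 called both, at 1.16 (adjusted p = 0.0444) and -1.47 (adjusted p = 0.00315). With 1 fit over all 12 libraries edgeR called both as well, at 1.14 (adjusted p = 0.0258) and -1.47 (adjusted p = 0.0319). It also called the acupuncture comparison without rt-PA+Acu replicate 3 (1.40, adjusted p = 0.0297). The difference from Sham was called by edgeR without rt-PA+Acu replicate 2 (-1.99, adjusted p = 0.025). Adamts3, which also cuts reelin, stood at 11.4, 16.7 and 15.2 CPM in the Sham rats, 6.72, 5.33 and 4.63 in the Model rats, 5.06, 12.4 and 5.09 with rt-PA and 13.2, 21.1 and 10.7 with rt-PA+Acu. Sham and Model did not overlap and differed by -1.37 (standard error 0.22, edgeR adjusted p = 0.00121). One rt-PA library lay among the rt-PA+Acu libraries, and that comparison gave 1.00 (edgeR adjusted p = 0.0957), which DESeq2 called (1.01, adjusted p = 0.047). So did edgeR with the replicate number as a block (1.07, adjusted p = 0.0205) and without rt-PA replicate 2 (1.56, adjusted p = 0.0173).

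Among the other ADAMTS proteases Adamts7 rose and Adamts10 and Adamts19 fell. Adamts7, which cuts the cartilage matrix protein COMP, stood at 0.564, 0.841 and 0.786 CPM in the Sham rats, 3.82, 5.67 and 4.21 in the Model rats, 11.2, 7.47 and 9.15 with rt-PA and 1.35, 0.960 and 3.28 with rt-PA+Acu. The order Sham, rt-PA+Acu, Model and rt-PA held with no overlap between groups. It rose by 2.63 (standard error 0.34, edgeR adjusted p = 0.000396) in Model vs Sham and was lower, with a change of -2.29 (standard error 0.44, edgeR adjusted p = 0.00831) in the acupuncture comparison, or -2.98 without rt-PA+Acu replicate 3. Adamts19 was low in all groups, with 37, 25 and 17 counts in the Sham rats, 6, 6 and 5 in the Model rats, 3, 3 and 4 with rt-PA and 60, 25 and 65 with rt-PA+Acu. It had the largest called rise of the 75 genes in the acupuncture comparison, by 4.03 (standard error 0.50, edgeR adjusted p = 0.00206), and a change of -2.18 (standard error 0.44, edgeR adjusted p = 0.00372) in Model vs Sham. Its rt-PA+Acu libraries overlapped with Sham. Adamts10, which binds fibrillin, fell from 24.2 to 30.04 CPM in Sham to 10.1 to 13.7 in Model, a change of -1.23 (edgeR adjusted p = 0.000532), and stood at 16.5 to 21.3 in rt-PA and 14.6 to 18.2 in rt-PA+Acu with no difference passing between them (-0.12, edgeR adjusted p = 0.613). Adamts13, which cuts von Willebrand factor in blood and is made mostly in liver, overlapped in Model vs Sham (-0.14, edgeR adjusted p = 0.57) and in the acupuncture comparison (-0.19, edgeR adjusted p = 0.489). Of the ADAMTS-like genes, whose proteins lack the protease part, Adamtsl1 stood at 2.98, 3.97 and 2.97 CPM in the Sham rats, 20.6, 10.9 and 9.002 in the Model rats, 14.2, 14.9 and 14.2 with rt-PA and 3.29, 3.14 and 5.45 with rt-PA+Acu. All Model and rt-PA libraries lay above all others, with changes of 2.04 (standard error 0.34, edgeR adjusted p = 0.00147) for Model vs Sham and -1.86 (standard error 0.25, edgeR adjusted p = 0.00267) in the acupuncture comparison. Adamtsl3, which overlaps Saxo2 in the annotation, rose by 1.19 (edgeR adjusted p = 0.0129) in Model vs Sham, a call that was lost without Sham replicate 1 (0.97) and without Model replicate 2 (edgeR adjusted p = 0.0526).

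**Figure D3:**
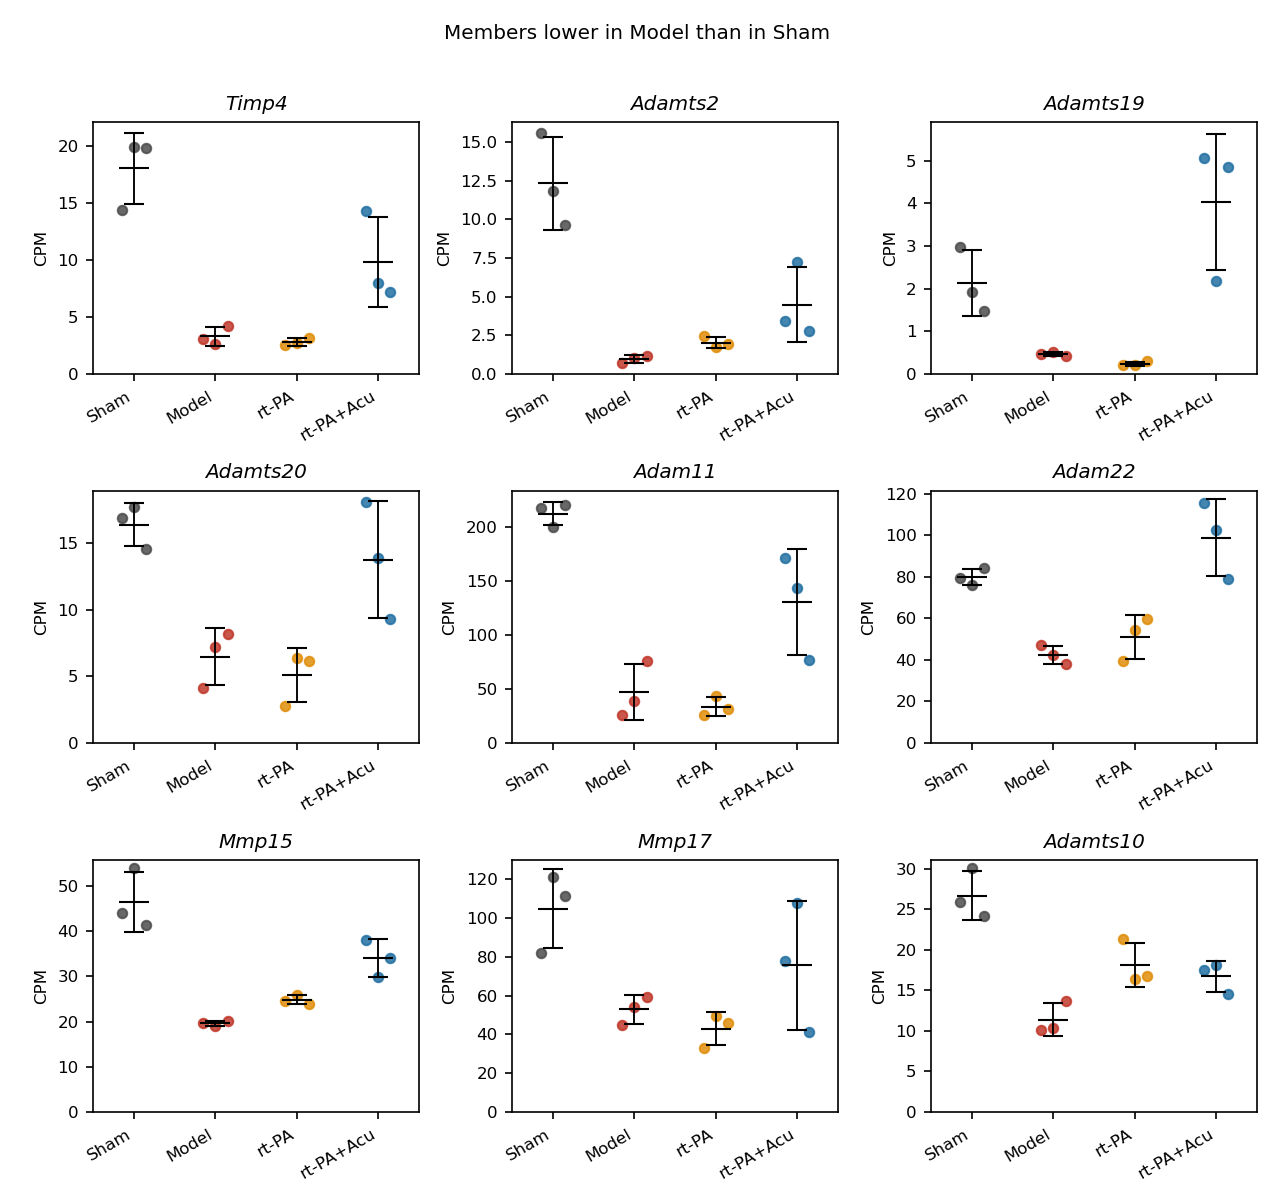
CPM in each library (points) for 9 genes that were lower in Model than in Sham at the adjusted p, by group, with the mean (long bar) and SD (whiskers, n = 3) and a linear axis from 0 per gene. All Model points lie below all Sham points in every panel, and in all panels but Mmp17 and Adamts10 all rt-PA+Acu points lie above all rt-PA points.

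Of 12 Adam genes tested in Model vs Sham, 1 rose and 1 fell, beside 21.5% of all genes called. At the adjusted p alone 3 were higher and 3 lower, beside 54% of all genes, so these counts did not exceed the background. Adam12, a sheddase linked to muscle and bone growth that also cuts growth factor precursors, stood at 9.42, 10.7 and 6.46 CPM in the Sham rats, 101, 66.96 and 43.8 in the Model rats, 76.5, 40.1 and 74.2 with rt-PA and 8.26, 5.85 and 19.3 with rt-PA+Acu. Every Model and rt-PA library lay above every Sham and rt-PA+Acu library. It rose by 3.00 (standard error 0.32, edgeR adjusted p = 0.000169) in Model vs Sham and was lower, with a change of -2.50 (standard error 0.45, edgeR adjusted p = 0.00681) in the acupuncture comparison, or -3.16 without rt-PA+Acu replicate 3. Adam11, a neuronal family member without protease activity, stood at 217, 199.7 and 219.6 CPM in the Sham rats, 26.03, 39.2 and 75.7 in the Model rats, 26.2, 43.3 and 31.3 with rt-PA and 171, 143 and 76.5 with rt-PA+Acu. Model replicate 3 was the highest Model library and rt-PA+Acu replicate 3 the lowest of its group, and the 2 were 75.7 and 76.5 CPM. Its log2 fold change was -2.17 (standard error 0.33, edgeR adjusted p = 0.000826) for Model vs Sham and 1.96 (standard error 0.31, edgeR adjusted p = 0.00453) in the acupuncture comparison. Adam22, the neuronal receptor of the secreted synaptic protein Lgi1, was lower in Model, at 37.9 to 46.9 CPM, than in Sham, at 76.2 to 84.1 CPM, with a change of -0.91 (edgeR adjusted p = 0.000252), under the fold threshold. In rt-PA+Acu it stood at 78.7 to 115 CPM and above rt-PA by 0.95 (edgeR adjusted p = 0.00986), also under it. Lgi1 itself was called higher in the acupuncture comparison, by 1.32 (edgeR adjusted p = 0.00767). Adam23, the other Lgi1 partner, overlapped between groups in Model vs Sham (0.08, edgeR adjusted p = 0.704) and in the acupuncture comparison (0.23, edgeR adjusted p = 0.58).

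Neither Adam10 nor Adam17 was called in any comparison. Adam10, the principal alpha-secretase of the amyloid precursor protein, stood at 116 to 130.5 CPM in the Sham rats, 101 to 119 in the Model rats, 101 to 151 with rt-PA and 103 to 125 with rt-PA+Acu. All groups overlapped, with a change of -0.13 (standard error 0.09, edgeR adjusted p = 0.265) in Model vs Sham. Adam17, which releases tumour necrosis factor, differed by 0.26 (standard error 0.14, edgeR adjusted p = 0.141) in Model vs Sham, at 24.2 to 30.04 CPM in Sham and 27.6 to 35.8 in Model. All rt-PA libraries lay above these, at 40.6 to 56.96 CPM, with a difference from Model of 0.62 (edgeR adjusted p = 0.334). It stood at 26.1 to 44.03 CPM in rt-PA+Acu, where the acupuncture comparison gave -0.54 (edgeR adjusted p = 0.092). Adam9 was tight within groups, at 66.8, 67.3 and 68.1 CPM in Sham and 109, 106 and 105 in Model. It was higher by 0.67 (edgeR adjusted p = 0.000236) in Model vs Sham and lower, with a change of -0.63 (edgeR adjusted p = 0.00673) in the acupuncture comparison, both under the fold threshold. Adam19 was higher by 0.74 (edgeR adjusted p = 0.00498) in Model vs Sham, also under it. Adam15 differed by 0.03 (edgeR adjusted p = 0.929) in Model vs Sham, with Model replicate 3 at 71.9 CPM above the other Model libraries at 35.9 and 35.6 CPM. Adam8, a sheddase of white blood cells and activated microglia, stood at 10.1, 5.43 and 4.63 CPM in the Sham rats, 7.02, 4.66 and 6.19 in the Model rats, 15.5, 11.6 and 11.2 with rt-PA and 4.05, 5.85 and 5.60 with rt-PA+Acu. Sham, Model and rt-PA+Acu overlapped and all rt-PA libraries lay above them. It was not called in Model vs Sham (-0.16, edgeR adjusted p = 0.695) and was lower, with a change of -1.30 (standard error 0.23, edgeR adjusted p = 0.0063) in the acupuncture comparison.

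Adding rt-PA alone to the stroke did not give a call. In rt-PA vs Model, 0 of 51 genes tested were called, as were 0% of all 12941 genes. With no adjustment of the p and the fold threshold kept, Adam8, Adamts2 and Adamts7 passed, all higher in rt-PA, where 1.86% of all genes passed and 1.45% were higher. By the unadjusted p alone 10 of the 51 passed, 9 higher and 1 lower, beside 9.92% of all genes, 5.19% higher and 4.73% lower. In 7 of the 51 the libraries of the groups did not overlap, beside 15.9% of all genes. DESeq2 called 2, Adam8 (1.09, adjusted p = 0.0087) and Adamts7 (1.02, adjusted p = 0.049), where it called 0.564% of all genes. The edgeR values for these were 1.10 (standard error 0.23, edgeR adjusted p = 0.296) and 1.02 (standard error 0.25, edgeR adjusted p = 0.334). For Mmp9 the difference was -0.02 (standard error 0.17, edgeR adjusted p = 0.982), a value that lay between -0.19 and 0.11 over the alternatives, and for Timp1 it was 0.57 (standard error 0.45, edgeR adjusted p = 0.73). The rt-PA and Model libraries overlapped for both genes.

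Acupuncture added to rt-PA gave calls in both directions, mostly lower. Here 51 genes were tested and 19 were called, 4 higher and 15 lower in rt-PA+Acu, that is 37.3%, where 15.3% of all 12999 genes tested were called, 7.17% higher and 8.16% lower. The median log2 fold change of the 51 was -0.12 beside -0.0027 for all genes. The genes called higher were Timp4, Adam11, Adamts19 and Adamts20. In 10 of the 15 called lower and 3 of the 4 called higher, rt-PA+Acu replicate 3 was the library of its group nearest to rt-PA. Without it, 24 were called. At the adjusted p alone 24 of the 51 passed, beside 34.8% of all genes, and in 27 the libraries did not overlap, beside 51.1%. Of the 22 genes called in Model vs Sham, 16 were called in the opposite direction here (72.7% of 22 and 84.2% of 19), and these comparisons share no library. For all genes, 1447 were called in both in opposite directions, 52.3% of those called in Model vs Sham and 72.6% of those called in the acupuncture comparison. The 6 genes called in Model vs Sham only were Adamts2, Adamts3, Adamts10, Adamtsl3, Mmp15 and Mmp28, and Adam8 and Timp3 were called in the acupuncture comparison only, as was Mmp8, which had too few counts to be tested in Model vs Sham, without a test of the difference between the comparisons.

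**Figure D4:**
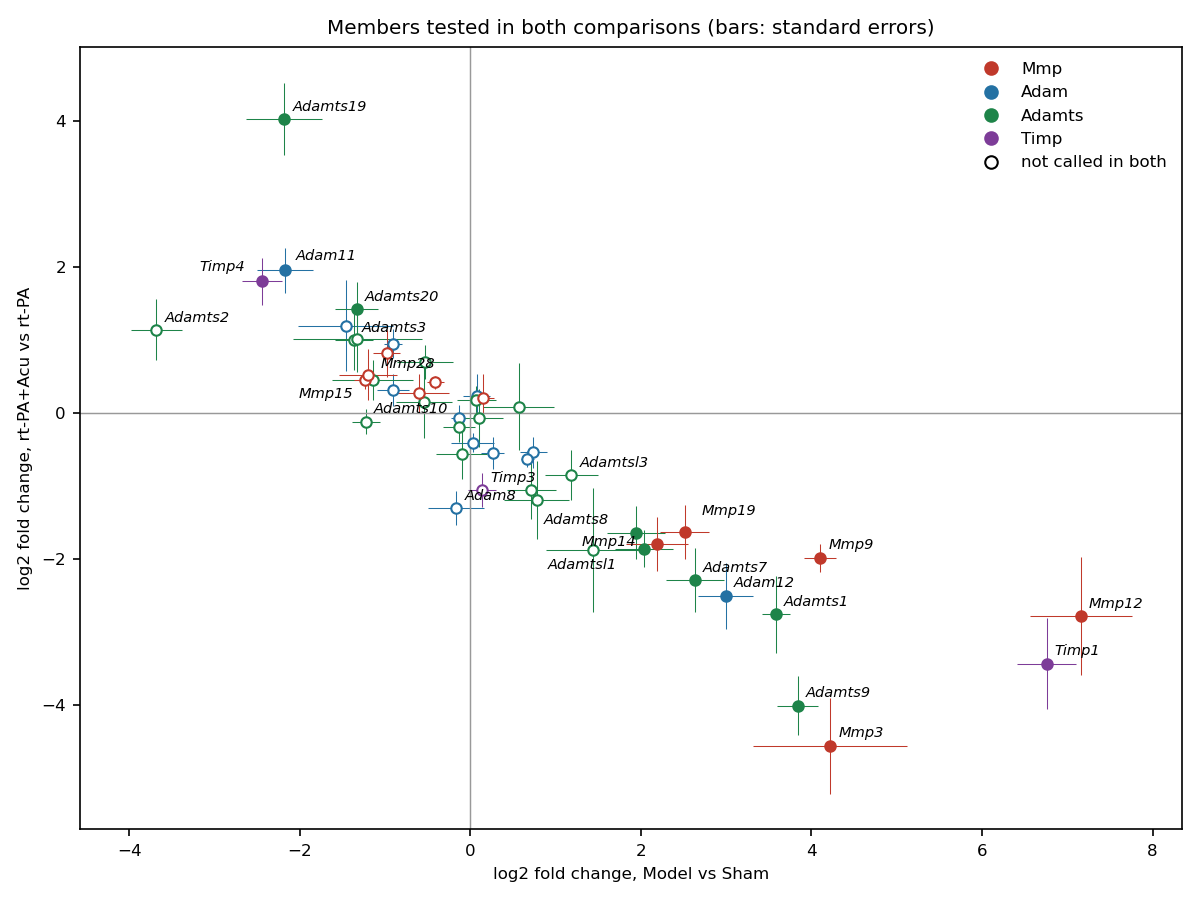
Acupuncture comparison (vertical axis) against Model vs Sham (horizontal axis), as log2 fold changes, for the 49 genes tested in both (points, coloured by family, with standard errors as bars), filled where called in both. The 16 filled points all have opposite signs on the axes, with Timp1 at 6.76 and -3.43, Mmp9 at 4.10 and -1.98 and Timp4 at -2.44 and 1.81.

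The rt-PA+Acu group differed at many of these genes from the untreated stroke and at few from Sham. These 2 comparisons share libraries with those above. In rt-PA+Acu vs Model, 19 of 50 genes were called, 8 higher and 11 lower, where 14.5% of all genes were called, 7.9% higher and 6.62% lower. Largest among these were Mmp3 (-4.85, edgeR adjusted p = 0.00831), Adamts9 (-3.49, edgeR adjusted p = 0.000963) and Timp1 (-2.87, edgeR adjusted p = 0.0059) on the lower side and Adamts19 (3.11, edgeR adjusted p = 0.00304), Adamts2 (2.22, edgeR adjusted p = 0.0107) and Timp4 (1.57, edgeR adjusted p = 0.0117) on the higher side. In 13 of the 19 the call held in every alternative that gave a value, and 6 lost it in at least 1. Adam11, Adamts20, Mmp12, Mmp14 and Mmp19 lost it without Model replicate 1 or 2 and without rt-PA+Acu replicate 1 or 2, Mmp12 and Mmp19 also without Model replicate 3, and Timp4 without Model replicate 2 (edgeR adjusted p = 0.0501). Without rt-PA+Acu replicate 3, Mmp3 was at -5.45, Timp1 at -3.62, Adamts1 at -3.54, Adam12 at -3.32 and Mmp12 at -4.87. In rt-PA+Acu vs Sham, 2 of 46 genes were called, Mmp9 and Timp1, both higher, where 2.06% of all genes were called, 0.916% higher and 1.14% lower. With the unadjusted p and the fold threshold 6 passed, beside 4.56% of all genes. DESeq2 called 5, adding Adamts2, Mmp14 (1.04, adjusted p = 0.0437) and Mmp19 (1.46, adjusted p = 0.0353), where it called 3.30% of all genes. Of these 2 calls, that of Mmp9 held in every alternative and that of Timp1 did not, as given above.

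Of 30 genes that open, bind or restrain metalloproteinases, 28 were tested in Model vs Sham, where 10 rose and 3 fell beside the 21.5% called of all genes. In the acupuncture comparison 3 were higher and 10 lower, beside 15.3% of all genes. The list's median log2 fold changes were -0.02 and -0.07, beside 0.01 and -0.0027 for all genes. Plau, urokinase, which makes plasmin, was at 0.441 ± 0.234 CPM in the Sham rats, 27.8 ± 9.24 in the Model rats, 29.1 ± 7.42 with rt-PA and 1.91 ± 0.871 with rt-PA+Acu (mean ± SD, n = 3). It rose by 5.98 (standard error 0.41, edgeR adjusted p = 2.53e-05) in Model vs Sham. Thbs1, thrombospondin 1, which binds Mmp2 and Mmp9, rose by 5.11 (edgeR adjusted p = 7.04e-06) and was lower, with a change of -4.28 (edgeR adjusted p = 0.00143) in the acupuncture comparison. Lcn2, whose protein protects Mmp9 from breakdown, rose by 3.45 (edgeR adjusted p = 0.000361) in Model vs Sham and stood 3.93 (edgeR adjusted p = 0.0268) above Sham in rt-PA+Acu, while its change in the acupuncture comparison was -0.35 (edgeR adjusted p = 0.687). Reck, a membrane inhibitor of several Mmp proteins, fell by 1.04 on the log2 scale in Model vs Sham (edgeR adjusted p = 0.00401). Adamdec1 had no count in any library. In rt-PA vs Model 0 of these genes were called, beside 0% of all genes. In rt-PA+Acu vs Model 3 of 28 tested were higher and 9 lower, beside 14.5% of all genes. In rt-PA+Acu vs Sham 3 of 27 were higher, Lcn2, A2m and Rhbdf2, beside 2.06% of all genes.

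The matrix genes that these enzymes cut were analysed for 25 of a list of 26. In Model vs Sham 4 rose and 4 fell, beside 21.5% of all genes called. In the acupuncture comparison 4 were higher and 11 lower, beside 15.3% of all genes called. Col4a1, a type IV collagen chain of the basal lamina, rose by 1.84 (edgeR adjusted p = 0.000453) and was lower, with a change of -2.67 (edgeR adjusted p = 0.00104) in the acupuncture comparison. The lecticans differed among themselves, with Acan up by 2.78 (edgeR adjusted p = 0.000162) and Ncan up by 2.39 (edgeR adjusted p = 0.000121) in Model vs Sham, while Bcan, the brevican gene, was at 449 ± 66.3 CPM in the Sham rats and 115 ± 21.1 in the Model rats (mean ± SD, n = 3), a change of -1.97 (edgeR adjusted p = 4.05e-05). The laminin and nidogen genes Lama4, Lama5, Lamc1, Nid1 and Nid2 were not called in Model vs Sham and were called lower in the acupuncture comparison, with log2 fold changes from -1.74 (Lama5) to -1.43 (Lamc1). The median of the list in that comparison was -0.82, beside -0.0027 for all genes. It had 5 higher and 5 lower in rt-PA+Acu vs Model, 1 higher in rt-PA+Acu vs Sham and 0 calls in rt-PA vs Model. Of all genes 14.5%, 2.06% and 0% were called in these comparisons. Of membrane proteins shed by ADAM10 or ADAM17, 27 of 28 were analysed. In Model vs Sham 7 of 25 tested rose and 4 fell, beside 21.5% of all genes called. In the acupuncture comparison 1 of 25 was higher and 7 lower, beside 15.3%. The largest rises were of the syndecan gene Sdc1 (7.49, edgeR adjusted p = 3.11e-05) and of Cd44 (5.07, edgeR adjusted p = 6.4e-06), a hyaluronan receptor that also holds Mmp9 at the cell surface. Vcam1, a vascular adhesion molecule, went the other way, with changes of -2.34 (edgeR adjusted p = 5.19e-05) in Model vs Sham and 1.20 (edgeR adjusted p = 0.00595) in the acupuncture comparison. The list had 0 calls in rt-PA vs Model, beside 0% of all genes. It had 2 higher and 5 lower in rt-PA+Acu vs Model, beside 14.5%, and 1 higher and 1 lower in rt-PA+Acu vs Sham, beside 2.06%.

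Markers of white blood cells and vessels, cells known to make Mmp9, Mmp8, Mmp12 and Adam8, moved with the acupuncture comparison. The summed level of 10 neutrophil markers, of which Mpo, Elane and Ltf had no count, was 8.71 to 14.3 CPM in Sham, 15.3 to 42.8 in Model, 50.2 to 123 in rt-PA and 11.9 to 49.8 in rt-PA+Acu, with 2 of 5 tested called higher in Model vs Sham and 3 of 5 lower in the acupuncture comparison. For 10 monocyte and macrophage markers the sums were 189 to 236, 268 to 373, 462 to 879.8 and 110.2 to 153 CPM in the same order of groups, with 2 of 9 higher in Model vs Sham and 7 of 9 lower in the acupuncture comparison. Endothelial markers, 7 of 9 analysed, summed to 271 to 299, 308 to 535, 442 to 609.8 and 171 to 202 CPM, with 1 higher and 1 lower in Model vs Sham and 5 of 7 lower in the acupuncture comparison. Of all genes tested, 21.5% were called in Model vs Sham and 15.3% in the acupuncture comparison. The part of these cells in the Mmp, Adam and Timp values was not tested.

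Resident cell markers changed unevenly by type. Of all genes tested, 21.5% were called in Model vs Sham, 15.3% in the acupuncture comparison and 14.5% in rt-PA+Acu vs Model. In Model vs Sham, astrocyte markers had 1 of 7 higher (Gfap) and 5 lower, oligodendrocyte markers 5 of 6 lower, oligodendrocyte precursor markers 3 of 5 lower, homeostatic microglia markers 4 of 7 lower and neuronal markers 1 of 8 lower. In the acupuncture comparison, 4 astrocyte, 2 precursor, 3 microglia and 1 neuronal marker were higher and 0 oligodendrocyte markers were called. Oligodendrocyte markers summed to 11966 to 17905 CPM in Sham and 1672 to 8503 in Model. They summed to 2695 to 11447 CPM in rt-PA and 3212 to 21103 in rt-PA+Acu, so rats of the same stroke group differed widely. Pericyte and smooth muscle markers had 1 of 8 higher and 1 lower in Model vs Sham, and 1 higher and 3 lower in the acupuncture comparison. Meningeal and fibroblast markers had 2 of 7 lower in Model vs Sham, 1 higher and 1 lower in the acupuncture comparison, and 4 of 7 higher in rt-PA+Acu vs Model. Their summed level was 55.3 to 157 CPM in Sham, 29.4 to 77.6 in Model, 79.3 to 276 in rt-PA and 71.4 to 178 in rt-PA+Acu. Choroid plexus markers, with Otx2 at 0 in all libraries, summed to 2.01 to 3.82, 11.2 to 48.7, 10.8 to 69.6 and 3.49 to 15.4 CPM, and 2 of 2 tested rose in Model vs Sham. Ependymal markers had 1 of 3 lower in Model vs Sham and 1 higher in the acupuncture comparison, and of the red blood cell markers 2 were analysed and neither had enough counts to be tested. The part of these cells in the values above was not tested.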

How the data were processed

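RNA sequencing libraries of rat cerebral cortex were grouped by their deposited labels. Per the study's methods and the submitters' processing notes, the authors aligned paired-end reads of 150 bases from poly(A) RNA to mRatBN7.2 with STAR 2.7.10 and counted read pairs on Ensembl genes with Salmon 1.9.0, while the notes also name featureCounts 2.0.1. The values the authors deposited are raw counts, whole numbers for each gene symbol, without normalization or pooling. Adapters held molecular identifiers, but whether duplicates were removed is not given in the sources used here, so bounds and intervals cover only counting error. Nothing says that same-numbered rats were paired.

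The tests used edgeR 4.0.16 in R 4.3.3 (filterByExpr, TMM, quasi-likelihood test, two-sided, Benjamini-Hochberg over all genes tested), separately for each of 5 pairs of groups on its 6 libraries. CPM used TMM factors over all 12 libraries. Genes with at most 3 counts over a group were given as a bound against 3 counts or as a ratio with an exact 95% interval. Promoter sequence and gene order are from RefSeq on GRCr8. Python 3.11.15 and matplotlib 3.10.9 made the plots. The fits were tested on simulated data.

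Genes named in the text were a list chosen for known roles in brain and stroke, other members that any comparison called and that averaged 1 CPM or more in a group, and the 3 largest rises and falls called in each comparison. The members, this rule, the pathway lists and the marker lists were chosen with earlier results of these data known. Alternatives were DESeq2 1.42.0, its size factors (RLE), library size alone, a joint fit of the 12 libraries, a filter of 10 counts in each library, hardly any filter (1 count), a block for the replicate number, the unadjusted p, the adjusted p with no fold threshold, other levels for an expressed gene, and leaving out each library. A term for the split of the libraries (Sham and Model replicate 3 against the other 8) was added after seeing the data. In that fit Model vs Sham rests on Model replicate 3 alone, and the term is set by Model replicate 3 against Model replicates 1 and 2, so it was not used to judge a call.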

Additional observations from a re-analysis of the deposited data

How the results depend on the processing

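With the fold threshold kept or with the adjusted p alone, counts of called genes lay within 1.5 times their value in every alternative for Model vs Sham, rt-PA+Acu vs rt-PA and rt-PA+Acu vs Model. Leaving out 1 library at a time gave 21 to 25, 16 to 24 and 13 to 22 genes in these comparisons. In rt-PA vs Model, 0 genes became 2 with DESeq2 and 3 with an unadjusted p and the fold threshold. In rt-PA+Acu vs Sham, 2 genes became 5 with DESeq2, 4 with 1 fit over all 12 libraries, 6 with an unadjusted p and 1 with the term for the split of the libraries, and leaving out 1 library gave 1 (without Sham replicate 2) to 3. Changes that were not called could reverse in direction. In Model vs Sham, Adam15 lay between -0.38 and 0.61 over all alternatives and Adam8 between -0.38 and 0.24. Another 3 are given here, and this is not a full list. Mmp9 in rt-PA vs Model became 0.021 with library size alone, 0.11 with the term for the split, and between -0.19 (without rt-PA replicate 3) and 0.11 when 1 library was left out, with 0.11 both without Model replicate 3 and without rt-PA replicate 1. In rt-PA+Acu vs Sham with the same term, Adam11 became 0.51 and Mmp14 -0.092. That term is set by Model replicate 3 against Model replicates 1 and 2 and separates all Sham from all rt-PA+Acu libraries, so these 2 reversals and the count of 1 follow from 1 library, and in Model vs Sham the fit holds 1 Model library. The cause of the other changes was not tested. No called change reversed. With that fit set aside, the call held in every alternative that gave a value for 20 of 22 genes in Model vs Sham, 16 of 19 for rt-PA+Acu vs rt-PA, 13 of 19 in rt-PA+Acu vs Model and 1 of 2 in rt-PA+Acu vs Sham. The filter of 10 counts in every library left 5, 4, 4 and 0 of these genes without a value.

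Same-numbered libraries of 2 groups deviated together with correlations of -0.254 to 0.146. With 3 libraries per group, such values cannot show whether the numbers paired the rats. With the replicate number as a block the comparisons had 25, 0, 20, 14 and 2 called genes, in the order Model vs Sham, rt-PA vs Model, rt-PA+Acu vs rt-PA, rt-PA+Acu vs Model and rt-PA+Acu vs Sham. The number of expressed genes was 57 at 0.5 CPM, 54 at 10 counts in 3 libraries and 66 at any count. Genes near 0.2 CPM rest on about 3 counts, so differences among the 25 genes not expressed were mostly not detectable at this depth.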
